A study of Mus musculus with 6 samples.

Results

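The genes described are the 10 that encode the receptors of the common gamma chain cytokines and of interleukin-6 (IL-6) in mouse splenic CD8+ T cells: Il7r, Il2ra, Il2rb, Il2rg, Il15ra, Il4ra, Il21r, Il6ra, Il6st and the kinase gene Jak3. They were chosen by name, as the chains of these receptors and their kinase, and each was found once among the 28773 genes of the data. All 10 had a mean level over the 6 samples of at least 1 FPKM (a fragment count divided by transcript length and by library size, so that levels of genes can be set side by side), the level required of the 12444 genes that were tested. The sequenced RNA came from CD8+ T cells taken from spleens on day 35, with 3 samples in the MWA+PBS group (replicates 1 to 3) and 3 in the MWA+2DG group (replicates 4 to 6). Mice of both groups carried an implanted tumor that was treated with microwave ablation (MWA), which destroys tumor tissue by heat. MWA+PBS mice were then injected repeatedly with the vehicle PBS, and MWA+2DG mice with 2-deoxy-D-glucose (2DG), a glucose analogue that blocks glycolysis. No group without ablation was analysed here. The mice of the study were female, the cells were isolated with a magnetic kit, and neither a genotype, a strain nor an age was given for these samples in the labels. The labels do not say whether each sample came from a separate mouse, so the p-values measure the spread between these samples, which may be technical.

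Cytokines of the common gamma chain family bind a private receptor chain (IL-7Rα for IL-7, IL-4Rα for IL-4, IL-21R for IL-21) that pairs with the shared common gamma chain, the product of Il2rg. IL-2 and IL-15 share IL-2Rβ, which pairs with the common gamma chain together with IL-2Rα for IL-2 or IL-15Rα for IL-15. The common gamma chain binds the kinase JAK3, and IL-7Rα, IL-4Rα, IL-21R and IL-2Rβ bind JAK1. These kinases activate STAT proteins, chiefly STAT5 for IL-2, IL-7 and IL-15, STAT6 for IL-4 and STAT3 for IL-21. IL-6 uses a separate pair, the ligand-binding IL-6 receptor (Il6ra) and the signaling chain gp130 (Il6st), which activates JAK1 and STAT3. In CD8+ T cells IL-7 supports survival of naive and memory cells, IL-15 supports the slow division of memory cells, and IL-2 through the high-affinity receptor with IL-2Rα drives effector cells.

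The RefSeq table held a promoter window (GRCm38.p6, 250 bases before to 50 bases after a start of transcription) for 9 of the 10 genes, and none for Il2rb. Windows are printed for the 3 genes whose differences on the log2(FPKM + 1) scale were largest, Il2rg, Il15ra (which had 2 starts) and Il6st, and for Il7r, whose level was high and differed little. Capitals mark matches, on either strand, to the letters TTCNNNGAA (a STAT site), GAAANNGAA (an interferon regulatory factor site), CCGGAAG or AGGAAGT (2 forms of an ETS family site), and the rest is in lower case, 5′ to 3′ along the gene's strand.
Il2rg, chrX:101268206-101268505, minus strand: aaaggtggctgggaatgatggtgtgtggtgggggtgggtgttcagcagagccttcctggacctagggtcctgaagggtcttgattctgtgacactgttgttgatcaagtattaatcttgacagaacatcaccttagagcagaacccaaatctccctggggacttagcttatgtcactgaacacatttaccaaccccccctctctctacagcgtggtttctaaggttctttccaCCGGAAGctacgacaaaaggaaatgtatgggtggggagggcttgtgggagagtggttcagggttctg
Il15ra start 1, chr2:11705043-11705342, plus strand: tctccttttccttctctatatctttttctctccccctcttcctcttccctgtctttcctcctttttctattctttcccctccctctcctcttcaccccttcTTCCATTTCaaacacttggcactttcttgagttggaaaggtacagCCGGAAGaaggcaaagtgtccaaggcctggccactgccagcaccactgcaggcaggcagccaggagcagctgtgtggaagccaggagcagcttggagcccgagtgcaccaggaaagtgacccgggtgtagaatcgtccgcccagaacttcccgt
Il15ra start 2, chr2:11705462-11705761, plus strand: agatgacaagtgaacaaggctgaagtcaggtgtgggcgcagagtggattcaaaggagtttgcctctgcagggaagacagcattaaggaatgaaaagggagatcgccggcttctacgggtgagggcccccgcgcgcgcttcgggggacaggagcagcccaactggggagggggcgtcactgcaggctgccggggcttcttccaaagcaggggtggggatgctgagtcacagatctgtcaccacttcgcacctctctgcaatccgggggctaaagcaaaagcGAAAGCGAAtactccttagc
Il6st, chr13:112463820-112464119, plus strand: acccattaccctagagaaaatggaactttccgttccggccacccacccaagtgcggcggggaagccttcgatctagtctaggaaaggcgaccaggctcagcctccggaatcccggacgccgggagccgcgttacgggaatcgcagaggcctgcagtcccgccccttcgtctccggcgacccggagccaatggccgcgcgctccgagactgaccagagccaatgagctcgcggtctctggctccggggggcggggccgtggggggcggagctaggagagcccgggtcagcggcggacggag
Il7r, chr15:9529827-9530126, minus strand: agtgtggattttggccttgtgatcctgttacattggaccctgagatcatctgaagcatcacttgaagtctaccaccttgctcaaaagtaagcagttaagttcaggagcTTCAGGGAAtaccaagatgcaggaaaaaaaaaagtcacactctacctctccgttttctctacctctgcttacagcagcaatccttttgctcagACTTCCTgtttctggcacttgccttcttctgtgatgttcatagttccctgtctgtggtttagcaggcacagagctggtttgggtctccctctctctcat
The Il2rg window held 1 match, CCGGAAG, whose first base lay 17 bases before the start (position -17). Il15ra held CCGGAAG at -104 and, on the opposite strand, the interferon regulatory factor letters at -149 of start 1, and GAAAGCGAA at 30 after start 2. The Il7r window held the STAT letters as TTCAGGGAA at -142, the only such match in the members' windows, and AGGAAGT on the opposite strand at -49. No letters searched were in the Il6st window, of which 68.3% was G or C, nor in those of Il4ra and Il21r. Of 32851 promoter windows of the same length, TTCNNNGAA was in 8.3%, GAAANNGAA in 8.56%, CCGGAAG in 8.86% and AGGAAGT in 9.35%. These matches describe letters only. In the same build Il4ra and Il21r lay on chromosome 7 with starts 51.2 kb apart on the plus strand, and Il2ra and Il15ra on chromosome 2 with (first) starts 62.5 kb apart.

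The values were examined with limma (a linear model across all tested genes) on log2(FPKM + 1), MWA+2DG minus MWA+PBS, and a gene was called at a Benjamini-Hochberg adjusted p under 0.05. Of the 10 receptor genes, 5 were higher in MWA+2DG (Il2rg, Il15ra, Il6st, Il21r and Il4ra) in FPKM as deposited. When samples were scaled to T lineage genes, Il21r and Il4ra turned lower and the other 3 lost their call. That scaling lowered every gene by 0.45 and called 71.6% of all tested genes lower. In FPKM as deposited 1 gene was lower (Il2rb, lower in either scaling), and 4 were not called (Il7r, Jak3, Il6ra and Il2ra). Of all 12444 tested genes, 39.4% were called, 22.3% higher and 17.1% lower. The 6 of 10 receptor genes called are to be read beside these shares. The median log2 fold change was 0.16 over the 10 genes and 0.05 over all tested genes, and the median size without sign was 0.23 against 0.21. In 6 of the 10 genes the groups did not overlap, against 52.1% of all tested genes. By the thresholds of the study (P under 0.05 and a size over 0.25 on the log2 scale) 38.2% of tested genes were called, and of the 10 genes Il2rg, Il15ra, Il6st and Il21r were.

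Facts of the whole series bear on these differences. Total FPKM was between 291803 and 313257 per sample, and Pearson's r across tested genes, which are not independent replicates, was 0.984 to 0.989 within a group and 0.934 to 0.943 between groups. Read depth is unknown, since FPKM holds no counts, and the labels name no batch, and treatment and batch cannot be told apart if both split the samples alike. The labelled cell type was checked against its markers: Cd8a ranged from 226 to 239 FPKM over MWA+PBS samples and from 359 to 377 FPKM over MWA+2DG samples, and Cd4 was at most 2.91 FPKM. A list of 16 T lineage genes (such as Cd3e, Lck and Thy1) had 15 higher, 0 lower and a median log2 fold change of 0.43, and its summed level ranged from 1558 to 1624 FPKM over the first group and from 2158 to 2308 FPKM over the second. In bulk samples, fewer cells of a type and less RNA per cell cannot be told apart.

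**Figure D1:**
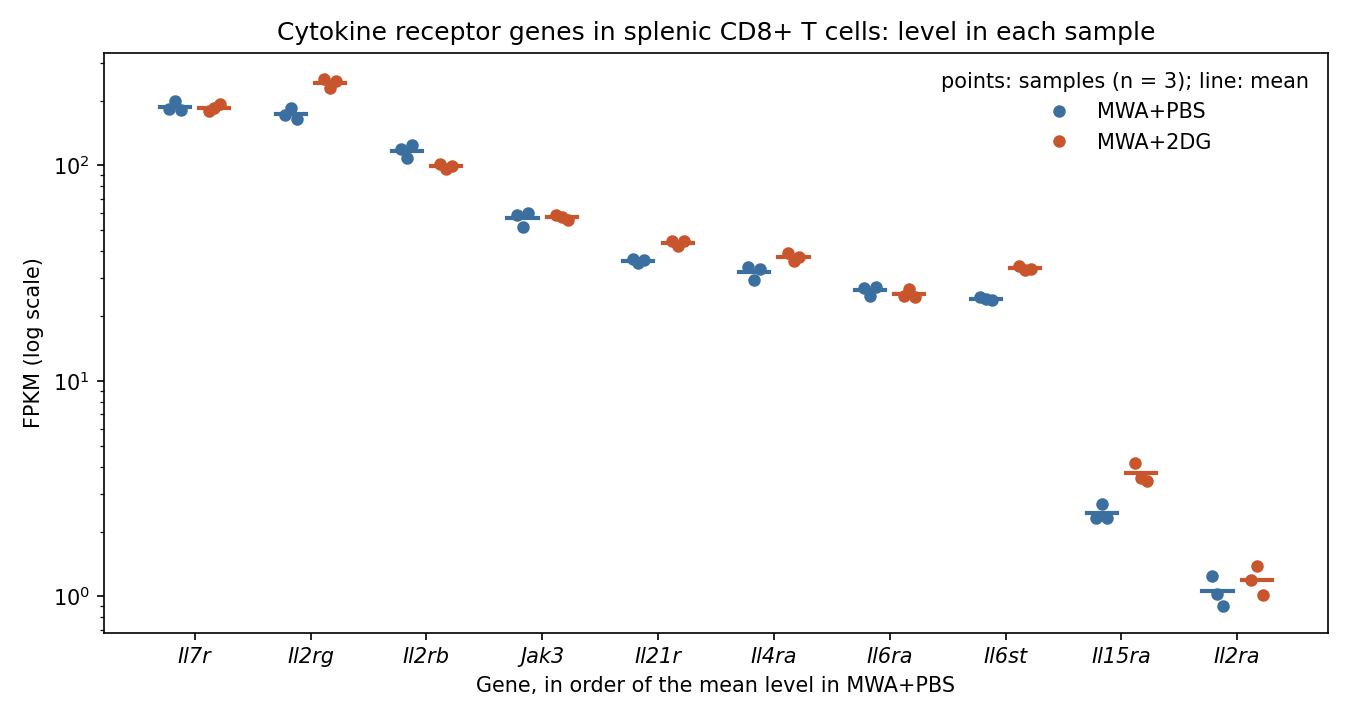
Level of each of the 10 genes in FPKM as deposited (log axis) in the 3 MWA+PBS samples (blue) and the 3 MWA+2DG samples (orange), with points for samples and lines for group means. The MWA+2DG points sit above all MWA+PBS points for Il2rg, Il21r, Il4ra, Il6st and Il15ra, below them for Il2rb, and among them for the other 4 genes.

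Il2rg (ENSMUSG00000031304), the common gamma chain shared by all receptors of the family, showed the largest difference of the 10 genes on the log2(FPKM + 1) scale, while Il15ra had the larger ratio of means. Its level was 171, 185 and 164 FPKM in MWA+PBS replicates 1 to 3 and 251, 228 and 247 FPKM in MWA+2DG replicates 4 to 6. Each MWA+2DG sample was above each MWA+PBS sample. The means were 173 ± 10.5 and 242 ± 12.5 FPKM (SD, n = 3), a 1.40-fold difference, or 0.48 on the log2 scale (SE 0.07; limma adjusted p = 0.00124). Il2rg shares exon sequence, on the same strand, with the annotated gene Gm20489, which was listed at no more than 0.12 FPKM in any sample, and assignment of fragments between them is uncertain. The 3 tested genes whose pattern over the 6 samples was most like that of Il2rg were Tk2, Chchd7 and Neurl3, with Euclidean distances between centred log2 values of 0.0509, 0.0607 and 0.0618.

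Jak3 (ENSMUSG00000031805), the kinase bound to the common gamma chain, was not called. It was 58.6, 51.8 and 60.5 FPKM in the MWA+PBS samples against 59.1, 57.8 and 55.7 FPKM in the MWA+2DG samples, and the groups overlapped. The log2 fold change was 0.02 with a 95% interval of -0.14 to 0.18 (limma adjusted p = 0.873). Jak3 shares exon sequence on the same strand with Insl3, which was between 1.54 and 3.43 FPKM, so a small part of either value may belong to the other gene. Measured within each sample, the ratio of Jak3 to Il2rg was 0.331 ± 0.0454 in the MWA+PBS samples and 0.238 ± 0.0146 in the MWA+2DG samples (SD, n = 3), and the groups did not overlap. Of all tested genes other than Il2rg, 72.7% likewise had a lower log2 ratio of FPKM + 1 to Il2rg without overlap. For Jak3 this log2 ratio gave an exact permutation p = 0.1, the smallest that 3 samples against 3 allow.

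Il7r (ENSMUSG00000003882), the private chain for IL-7 and a gene commonly used to mark naive and memory T cells, was the highest of the 10 genes in MWA+PBS. It was 182, 199.9 and 181 FPKM in the MWA+PBS samples against 179, 184 and 193 FPKM in the MWA+2DG samples. The groups overlapped, and the means of 188 ± 10.5 and 185 ± 7.35 FPKM (SD, n = 3) differed by less than the spread between replicates. The interval of the log2 fold change was -0.16 to 0.12 around -0.02 (limma adjusted p = 0.83). With trends of GC content and transcript length removed, an alternative chosen after seeing the data, Il7r was called lower at -0.13 (limma adjusted p = 0.0212), and its sign varied with sample weights and with the sample left out.

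Il2rb (ENSMUSG00000068227), the signaling chain shared by the receptors for IL-2 and IL-15, was the 1 gene called lower. It was 119, 108 and 124 FPKM in the MWA+PBS samples against 101, 96.6 and 99.3 FPKM in the MWA+2DG samples, so that each MWA+2DG sample was below each MWA+PBS sample. The mean fell from 117 ± 8.41 to 99.0 ± 2.31 FPKM (SD, n = 3), a level 0.846 of that in MWA+PBS, a difference of -0.24 on the log2 scale (SE 0.06; limma adjusted p = 0.0225). The call rested on the full set of samples: without MWA+PBS replicate 1 or 3, or without any 1 of the MWA+2DG replicates, the limma adjusted p was between 0.0519 and 0.078.

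Il15ra (ENSMUSG00000023206), the chain that binds IL-15 with high affinity and can present it to neighboring cells, was a low transcript that was higher in MWA+2DG. Its values were 2.31, 2.69 and 2.32 FPKM in the MWA+PBS samples against 4.18, 3.56 and 3.43 FPKM in the MWA+2DG samples, with no overlap. The 1.53-fold difference between means of 2.44 ± 0.217 and 3.72 ± 0.401 FPKM (SD, n = 3) gave 0.46 on the log2 scale (SE 0.09; limma adjusted p = 0.00642), a scale that understates the change of low genes. Il2ra (ENSMUSG00000026770), the chain of the high-affinity IL-2 receptor that marks recently activated and regulatory T cells, was the lowest of the 10 genes in both groups. It was 1.25, 1.03 and 0.90 FPKM in the MWA+PBS samples against 1.19, 1.39 and 1.01 FPKM in the MWA+2DG samples. The groups overlapped, and the 95% interval of its log2 fold change, -0.18 to 0.36, was the widest of the 10.

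Il21r and Il4ra, the private chains for IL-21 and IL-4, were both called higher in FPKM as deposited. Both were called lower after T lineage scaling, as were 71.6% of all tested genes. Il21r (ENSMUSG00000030745) was 36.9, 35.2 and 36.6 FPKM in the MWA+PBS samples against 44.5, 42.1 and 44.5 FPKM in the MWA+2DG samples, without overlap, and differed by 0.26 on the log2 scale (SE 0.05; limma adjusted p = 0.00521). Il4ra (ENSMUSG00000030748) was 33.8, 29.4 and 33.0 FPKM in the MWA+PBS samples against 39.2, 35.9 and 37.8 FPKM in the MWA+2DG samples, also without overlap, and differed by 0.22 on the log2 scale (SE 0.07; limma adjusted p = 0.0332). The call of Il4ra was near the threshold: with libraries scaled by median ratios it was 0.17 (limma adjusted p = 0.0862), and it was lost without MWA+PBS replicate 3 (limma adjusted p = 0.0525), MWA+2DG replicate 4 (0.11) or MWA+2DG replicate 6 (0.0907). Il4ra overlaps the antisense gene Gm44876, listed at no more than 0.51 FPKM, and the sources used here do not say whether strand was used in counting.

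For the IL-6 receptor, the signaling chain was called higher and the binding chain was not called in FPKM as deposited. Il6st (ENSMUSG00000021756), which encodes gp130, was 24.4, 23.9 and 23.7 FPKM in the MWA+PBS samples against 34.0, 32.8 and 33.0 FPKM in the MWA+2DG samples. Replicates were tight and the groups were far apart, with means of 24.0 ± 0.348 and 33.3 ± 0.661 FPKM (SD, n = 3), a 1.38-fold difference. On the log2 scale it was 0.45 (SE 0.05; limma adjusted p = 0.000292), the smallest adjusted p of the 10 genes. Il6ra (ENSMUSG00000027947), which encodes the chain that binds IL-6, was 27.1, 24.8 and 27.2 FPKM in the MWA+PBS samples against 24.7, 26.8 and 24.5 FPKM in the MWA+2DG samples. Its groups overlapped, with a log2 fold change of -0.06 and a 95% interval of -0.20 to 0.09 (limma adjusted p = 0.498). Il6ra overlaps the antisense gene Gm42809, which was between 0.12 and 1.18 FPKM.

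Because both chains of a receptor are read from the same sample, their ratio of FPKM does not move with the scaling of the library. Of 8 ratios, 6 were lower in MWA+2DG without overlap between groups: those of Il7r, Il2rb, Il4ra, Il21r and Jak3 to Il2rg, and that of Il6ra to Il6st. Ratios to Il2rg share that denominator and are not separate evidence: of all other tested genes, 72.7% had a lower log2 ratio of FPKM + 1 to Il2rg in MWA+2DG without overlap, and 73.5% a lower one to Il6st. The ratio of Il2ra to Il2rg was 0.00548 to 0.00732 in the MWA+PBS samples and 0.00409 to 0.00611 in the MWA+2DG samples, which overlap, and it did not overlap only as a ratio of FPKM + 1. Il7r stood at 1.06 to 1.11 times the level of Il2rg in the MWA+PBS samples and at 0.711 to 0.808 times in the MWA+2DG samples. For Il2rb the ratio was 0.679 ± 0.0882 in the MWA+PBS samples and 0.410 ± 0.0126 in the MWA+2DG samples (SD, n = 3), the largest shift of the 8, with a difference of -0.72 in the log2 ratio of FPKM + 1. The ratio of Il4ra was 0.186 ± 0.0233 and 0.156 ± 0.00257, and that of Il21r 0.210 ± 0.0172 and 0.181 ± 0.00395, with log2 differences of -0.26 and -0.21. The ratio of Il15ra to Il2rg overlapped between groups, with a log2 difference of -0.02 (exact permutation p = 0.9). The ratio of Il6ra to Il6st went from 1.10 ± 0.0551 to 0.762 ± 0.0475, a log2 difference of -0.51. In a two-sided exact permutation test of FPKM + 1 these 6 ratios and that of Il2ra each gave p = 0.1, the smallest that 3 samples against 3 allow (Il2ra p = 0.3 with a pseudocount of 0.1), and 0.114 after Benjamini-Hochberg adjustment over the 8 ratios. No ratio could therefore pass 0.05.

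**Figure D2:**
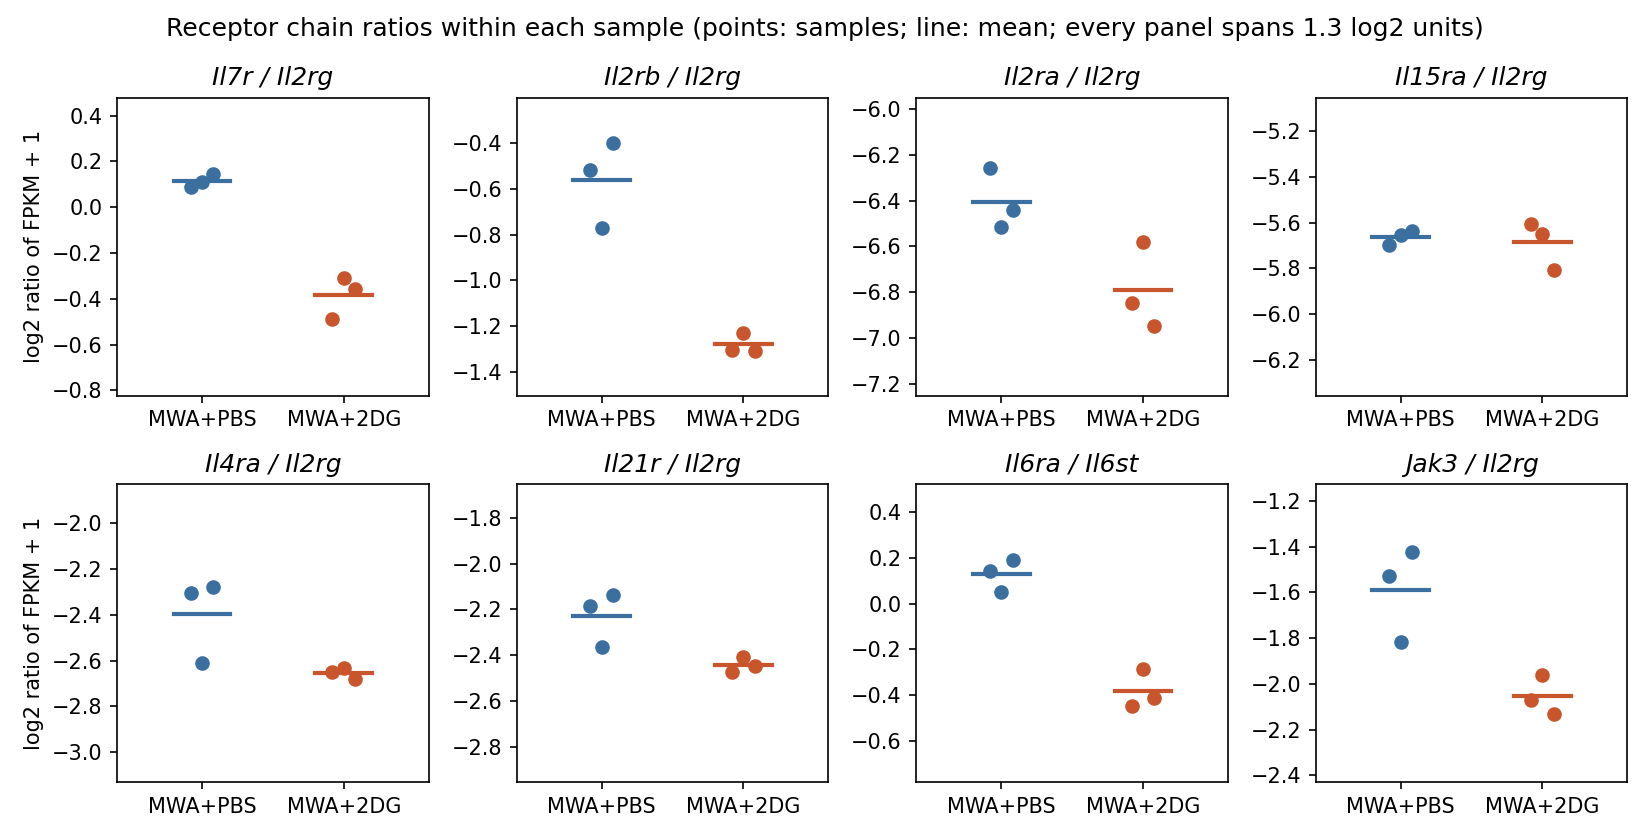
Log2 ratio of FPKM + 1 between 2 genes of a receptor within each sample, 1 panel for each of the 8 ratios, with points for samples, lines for means and the same span of the vertical axis in each panel. The MWA+2DG points (orange) lie below all MWA+PBS points (blue) in 7 panels (for Il2ra over Il2rg not without the pseudocount of 1) and overlap them for Il15ra over Il2rg.

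The order of the levels changed at 2 places. In MWA+PBS it was Il7r, Il2rg, Il2rb, Jak3, Il21r, Il4ra, Il6ra, Il6st, Il15ra and Il2ra from high to low, and the values of Il7r and Il2rg overlapped while other neighbors in the order did not. MWA+2DG had the same order except that Il2rg stood above Il7r and Il6st above Il6ra, and there no neighbors overlapped. The 10 genes summed to 657 ± 3.76 FPKM in the MWA+PBS samples and 728 ± 17.4 FPKM in MWA+2DG (SD, n = 3). Of that sum Il2rg held 26.4% ± 1.45 in MWA+PBS and 33.2% ± 0.971 in MWA+2DG, Il7r 28.6% ± 1.44 and 25.4% ± 1.06, and Il2rb 17.8% ± 1.38 and 13.6% ± 0.147. Relative to the family as a whole, more of the receptor transcript was thus common gamma chain in each MWA+2DG sample.

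Since the T lineage list was higher in MWA+2DG, the fit was repeated with each sample scaled to the mean log2 level of that list. This scaling lowered the log2 fold change of each gene by 0.45 and the median of all tested genes to -0.41, and then 3.46% of tested genes were called higher and 71.6% lower. Of the 10 receptor genes 0 were called higher and 7 lower. Il2rg, Il15ra and Il6st were level with the T lineage genes, at 0.02, 0.00098 and -0.0022 (limma adjusted p = 0.709, 0.993 and 0.97), with 95% intervals of -0.11 to 0.16, -0.21 to 0.21 and -0.12 to 0.11. Il7r was -0.47, Jak3 -0.44, Il6ra -0.51, Il2ra -0.36 and Il2rb -0.69. Il21r and Il4ra changed sign, to -0.19 and -0.23 (limma adjusted p = 0.00969 and 0.0124). Distances between genes are not altered by this scaling: Il2rg lay 0.43 above the median of all tested genes in either case, Il15ra 0.41 and Il6st 0.41 above it, and Il2rb at -0.28 from it.

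**Figure D3:**
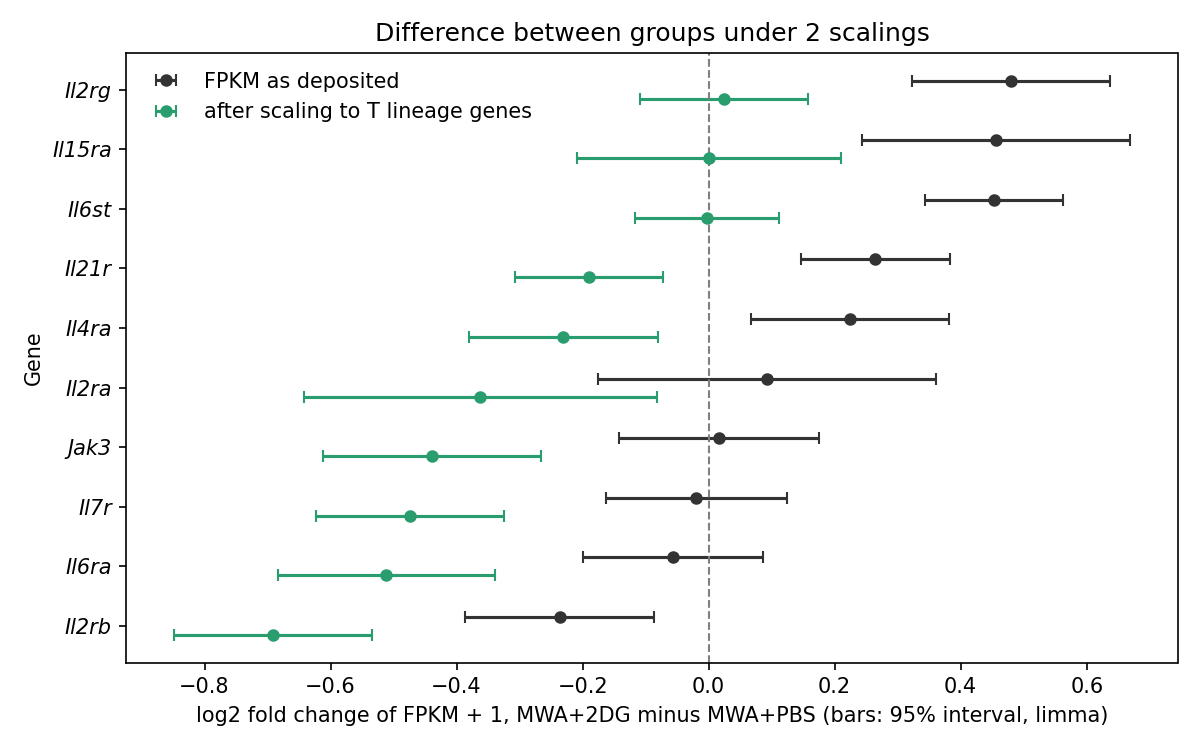
Log2 fold change of FPKM + 1 (MWA+2DG minus MWA+PBS) of each of the 10 genes with its 95% interval from limma, from FPKM as deposited (black) and after scaling to T lineage genes (green). The scaling moves each gene to the left by 0.45, so that Il2rg, Il15ra and Il6st come to lie near 0 and the other 7 genes below it.

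Markers of other spleen cells also differed between groups. The 12 neutrophil genes, such as Ngp and S100a9, summed to 67.0 to 91.9 FPKM in the MWA+PBS samples and 1596 to 1777 FPKM in MWA+2DG, with 11 higher and 0 lower. The 12 monocyte and macrophage genes, such as Csf1r and C1qa, summed to 581 to 637 FPKM and 89.4 to 96.6 FPKM, with 11 of 11 tested lower. B cell genes summed to 76.0 to 94.7 and 130.1 to 135.0 FPKM, with 9 of 10 higher. Erythroid genes summed to 292 to 347 and 66.9 to 84.7 FPKM, with 8 of 8 lower. Natural killer cell genes (a list that holds Eomes, also a regulator of receptor genes) had 2 higher and 3 lower of 6 tested, with Ncr1 lower at -0.35 (limma adjusted p = 0.00764), and 2 genes of each of the dendritic (2 tested), plasma cell (3 tested) and CD4 and regulatory T cell (6 tested) lists were lower and 0 higher. No marker was at 0 in all samples. Neutrophils, macrophages and B cells are known to express several of the 10 genes, among them Il2rg, Il4ra, Il6ra and Il6st, and natural killer cells express Il2rb. The part of these cells in the receptor values was not tested.

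The rest of the pathway was described from gene lists. Among other receptor chains, 4 of 8 were tested, with 1 higher and 1 lower. Il27ra, which pairs with gp130 in the IL-27 receptor, rose from 72.2, 73.0 and 68.7 FPKM to 99.7, 94.2 and 95.7 FPKM, a difference of 0.43 on the log2 scale (limma adjusted p = 0.00055) next to 0.45 for Il6st. Il13ra1, a partner of IL-4Rα chiefly in non-lymphoid cells, fell by 0.79 on the log2 scale (limma adjusted p = 0.000432), from 2.04 ± 0.123 to 0.76 ± 0.04 FPKM (SD, n = 3). Il9r, the private chain for IL-9, was under the level required for the test, at 0.21, 0.28 and 0.15 FPKM in the MWA+PBS samples against 0.90, 1.17 and 0.93 FPKM in the MWA+2DG samples, and was called higher when no gene was left out for a low level (0.72, limma adjusted p = 0.00332). In that fit Lifr, a partner of gp130, was called lower (-0.43, limma adjusted p = 0.00276), with 0.50 to 0.59 FPKM in MWA+PBS and 0.13 to 0.16 FPKM in MWA+2DG, so that 2 genes of the list were higher and 2 lower.

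Of the ligands, 14 of 15 were found and 3 were tested. Ebi3, a subunit of IL-27, was lower (-0.64), as was Osm, which encodes the gp130 cytokine oncostatin M (-0.24), while Clcf1, a cytokine gene of the same family, was higher (0.14; limma adjusted p = 0.0118, 0.0448 and 0.0389). Il2, Il4, Il7, Il15, Il21 and Il6 were below the level required for the test, none above 1.04 FPKM in any sample. Il2 was listed at 0.09, 0.27 and 0.10 FPKM in the MWA+PBS samples and at 0 in all 3 MWA+2DG samples. It was not called when no gene was left out for a low level (limma adjusted p = 0.0733).

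Of the 3 other Janus kinases 1 was higher. Jak1, the kinase of the private chains, was 148, 155 and 146 FPKM in the MWA+PBS samples against 174, 171 and 180.0 FPKM in the MWA+2DG samples, a difference of 0.22 on the log2 scale (limma adjusted p = 0.0113), and Jak2 and Tyk2 were not called (0.12 and 0.19). Among STAT factors, Stat6, which acts for IL-4, was lower at -0.19 (limma adjusted p = 0.0276). Stat5a, Stat5b and Stat3 were not called, with log2 fold changes of 0.05, -0.0057 and -0.09.

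Among feedback inhibitors, 3 were higher and 1 lower of 7 tested. Ptpn2, a phosphatase of JAK1 and JAK3, went from 13.5 ± 1.8 to 20.3 ± 1.43 FPKM (SD, n = 3) at 0.56, and Socs1 and Pias1 were higher at 0.39 and 0.19 (limma adjusted p = 0.00344, 0.0427 and 0.0406). Socs3, an inhibitor that binds gp130, was lower at -0.33 (limma adjusted p = 0.0135). Known STAT5 and STAT3 target genes had 4 higher and 3 lower of 13 with a median of 0.08 in FPKM as deposited. After T lineage scaling 0 were higher and 10 lower, beside 71.6% of all tested genes lower. The survival gene Bcl2 was higher at 0.44, with 25.4, 26.2 and 25.9 FPKM in the MWA+PBS samples against 34.8, 36.7 and 34.2 FPKM in the MWA+2DG samples, as were the kinase gene Pim2 at 0.42 and Myc at 0.27, whereas Pim1 was lower at -0.74, with means of 26.4 ± 1.52 and 15.5 ± 0.782 FPKM (SD, n = 3; limma adjusted p = 0.000487, 0.00117, 0.0114 and 0.000123). A further kinase gene of this family, Pim3, was lower at -0.25 (limma adjusted p = 0.0221).

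Of 7 regulators of receptor transcription, 3 were higher and 1 lower. Eomes, a T-box factor known to act on Il2rb, rose from 23.1, 23.0 and 22.5 FPKM to 44.5, 44.6 and 47.8 FPKM, a difference of 0.97 on the log2 scale (limma adjusted p = 1.06e-05), and stayed higher after T lineage scaling at 0.51 (limma adjusted p = 0.000101). Tbx21, which encodes the related factor T-bet, was higher at 0.35 (limma adjusted p = 0.00185). Their known target Il2rb was lower in the same samples. Foxo1, an activator of Il7r, was higher at 0.47 (limma adjusted p = 0.00117), with 21.8, 19.7 and 21.9 FPKM in the MWA+PBS samples against 28.0, 31.3 and 29.7 FPKM in the MWA+2DG samples, while Il7r was not called. Runx3 was called lower at -0.52 (limma adjusted p = 0.0291) although its groups overlapped, with 35.9 FPKM in MWA+PBS replicate 2 and 36.1 FPKM in MWA+2DG replicate 5. Adam10 and Adam17, whose proteases shed IL-6 receptor from the cell surface, were not called, with log2 fold changes of 0.07 and 0.07. These calls are from FPKM as deposited. After T lineage scaling Clcf1, Jak1, Pias1 and Myc were called lower, at -0.31, -0.23, -0.27 and -0.19 (limma adjusted p = 0.00092, 0.00397, 0.00397 and 0.0389), and Il27ra, Ptpn2, Socs1, Bcl2, Pim2, Foxo1 and Tbx21 were no longer called. Genes not called in FPKM as deposited were then called lower too: Stat5a, Stat5b and Stat3 at -0.40, -0.46 and -0.54, Jak2 and Tyk2 at -0.34 and -0.27, and Adam10 and Adam17 at -0.38 and -0.39 (limma adjusted p between 0.000173 and 0.0111). In that scaling feedback inhibitors had 0 higher and 5 lower of 7, and regulators of receptor transcription 1 higher (Eomes) and 4 lower of 7. Over all tested genes the shares were 3.46% higher and 71.6% lower, with a median of -0.41. With no gene left out for a low level, Osm, Socs1, Pias1 and Runx3 were not called (limma adjusted p = 0.0856, 0.105, 0.0555 and 0.0801).

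**Figure D4:**
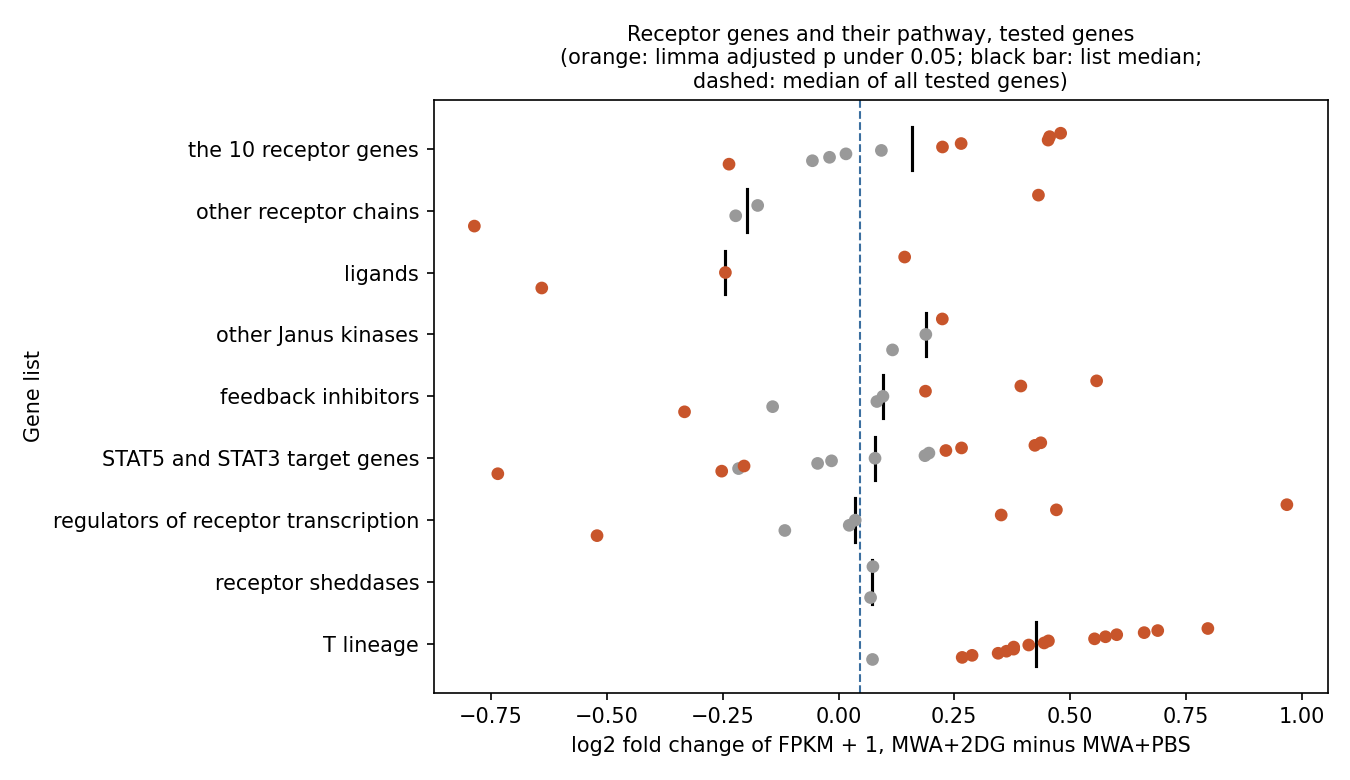
Log2 fold change of FPKM + 1 (MWA+2DG minus MWA+PBS) of the tested genes of each list shown, from FPKM as deposited, in orange where the limma adjusted p was under 0.05 and in grey otherwise, with a black bar at each list's median and a dashed line at the median of all tested genes, 0.05. The 10 receptor genes have a median of 0.16, the T lineage genes one of 0.43, and Eomes and Pim1 lie farthest from 0 in their lists.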

How the data were processed

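Poly(A) RNA of CD8+ T cells was made by the authors into strand-marked libraries with molecular identifiers. The submitters' processing notes name cutadapt 1.9, HISAT2 2.0.4, UMI-tools, StringTie 1.3.4d and the build mm9, and the study's methods name fastp and ballgown. The deposited FPKM values carried 2 decimals or fewer. Values are shares of a library, so a few abundant transcripts can lower all others. Read depth is unknown. Symbols came from GENCODE M21 for 28689 of 28773 IDs.

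Genes with a mean of at least 1 FPKM were tested on log2(FPKM + 1) with limma 3.58.1 in R 4.3.3 (eBayes with a trend, two-sided, no covariates), and p-values were adjusted over all 12444. Ratios were tested by exact permutation over samples. The 10 genes and the pathway and marker lists were chosen with earlier results of these data known. All 10 genes were named. Of each pathway list, called genes were named, at most 4 by size of change, and the 3 genes most like the member of largest change. Other genes were named after their values were seen. Alternatives were a pseudocount of 0.1, no filter, a mean of at least 5 FPKM, quantile, median ratio and T lineage scaling, library totals that omit ribosomal protein, globin, immunoglobulin and mitochondrial genes, no trend in eBayes, arrayWeights, the study's thresholds and leaving out each sample. Removal of GC and length trends (splines of 5 degrees of freedom) was added after seeing the data. Promoter matches used both strands. Some genes of the lists are not reported here.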

Additional observations from a re-analysis of the deposited data

How the results depend on the processing

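No paired analysis was possible because the labels number the replicates 1 to 3 in one group and 4 to 6 in the other, and the files, which number each group from 1, are tied to each other by no label. T lineage scaling changed most: it gave 0 receptor genes higher and 7 lower, beside 3.46% of all tested genes higher and 71.6% lower. The median of all tested genes was then -0.41. Il7r at -0.47 and Il6ra at -0.51 were newly called. Il2ra at -0.36, Il4ra at -0.23, Il21r at -0.19, Jak3 at -0.44 and Il6st at -0.0022 were on the other side of 0. Il2rg at 0.0248 and Il15ra at 0.00098 were no longer called. Il4ra was also not called without a filter or without a trend in eBayes (0.22 in both, limma adjusted p = 0.0599 and 0.0516), with median ratios (0.17) or by the study's thresholds (0.22), which also left out Il2rb (-0.24) and so called 0 genes lower. Signs turned for Jak3 with median ratios (-0.034) and arrayWeights (-0.018), and for Il7r with arrayWeights (0.0114). With GC and length trends removed, chosen after seeing the data, Il7r was called lower at -0.13, Il6ra was 0.0071, and 2 genes were lower. With a pseudocount of 0.1 the log2 ratio of Il15ra to Il2rg differed by 0.11, and that of Il2ra to Il2rg by -0.32 (exact permutation p = 0.3, n = 3).

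Leaving out each sample, the number called higher was 4 to 5 and lower 0 to 1. The log2 fold change was 0.44 to 0.53 for Il2rg, 0.39 to 0.51 for Il15ra, 0.44 to 0.46 for Il6st, 0.24 to 0.29 for Il21r, 0.17 to 0.26 for Il4ra, -0.29 to -0.19 for Il2rb, -0.0497 to 0.0263 for Il7r (above 0 without MWA+PBS replicate 2, at 0.0263, or MWA+2DG replicate 4, at 0.0064), -0.0496 to 0.0602 for Jak3 (below 0 without the same samples, at -0.0496 and -0.0028), 0.03 to 0.16 for Il2ra and -0.10 to -0.03 for Il6ra. The log2 ratio of Il15ra to Il2rg differed by -0.065 to 0.0367, above 0 without MWA+2DG replicate 6 (0.0367), and the other 7 ratios stayed below 0. At a mean of at least 5 FPKM, Il2ra and Il15ra were not tested, and 1787 genes were higher and 1164 lower. Where no value shows it, the cause was not tested. Unknown depth limits the lowest genes, Il2ra and Il15ra, for which no counting error can be given.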
